A study of Mus musculus with 24 samples.

Results

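The 7 genes described here handle extracellular ATP and adenosine at the T cell surface: the ectoenzymes Entpd1 (CD39) and Nt5e (CD73), the adenosine receptor Adora2a, adenosine deaminase (Ada), the nucleoside transporter Slc29a1, and the ATP-gated channels P2rx7 and P2rx4. They were taken from the count table by matching its Ensembl gene IDs to these symbols in GENCODE M21, which found 7 of 7 among 39056 genes, and all 7 were among the 18789 genes tested. Their RNA was measured in treated and control Tconv, Treg, TFH and TFR cells, 3 libraries in each of 8 groups, 24 in all. The mice, all female and 23 weeks old at the start, were NZBWF1/j hybrids, which are prone to lupus-like disease. OX40L (the OX40 ligand) and JAG1 (a Notch ligand) were given to treated mice as recombinant mouse proteins, each at 2 mg/kg into the peritoneum in 3 weekly doses, while controls received PBS. Cells were collected at week 26. The sort gates on CD4+ cells were CXCR5- GITR- for Tconv (conventional), CXCR5- GITR+ for Treg (regulatory), CXCR5+ PD1-high GITR-negative or low for TFH (follicular helper) and CXCR5+ PD1-high GITR-high for TFR (follicular regulatory). The labels do not tie the libraries of a group to different mice. The p-values therefore reflect library-to-library spread, part or all of which may be technical. Treatment cannot be told apart from any difference in handling between treated and control animals.

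ATP released from stressed or activated cells acts on P2X channels such as P2rx7, whose opening activates T cells and at high ATP kills them. On the same surface Entpd1 breaks ATP and ADP down to AMP, and Nt5e turns AMP into adenosine, which raises cAMP in T cells through Adora2a and dampens their activation. Adenosine is removed by Ada, which deaminates it to inosine, and by uptake through Slc29a1 followed by phosphorylation inside the cell. In the mouse, regulatory T cells are known for carrying both ectoenzymes, and follicular helper cells for Nt5e and P2rx7.

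Library totals were 31805325 to 53788643 counts in treated libraries, 24698544 to 33185433 in control Tconv and Treg libraries, and 2537901 to 15234765 in control TFH and TFR libraries. Levels are given in CPM, counts scaled to library size and to each other (TMM). The sort labels were checked with Foxp3, the lineage factor of regulatory cells, and Cxcr5. Foxp3 was at 322 to 598 CPM in Treg and TFR libraries and at 4.31 to 67.3 CPM in Tconv and TFH libraries. Cxcr5 was at 42.6 to 285 CPM in TFH and TFR libraries, against 0.824 to 46.1 CPM in Tconv and Treg libraries, so control TFR and treated Treg cells met at this gene. Summed marker lists separated the sorts less well. Regulatory markers summed to 1982 to 2870 CPM in Treg and TFR, 790 to 1040 CPM in TFH and 132 to 212 CPM in Tconv libraries. Follicular markers summed to 1121.9 to 1142.5 CPM in control Treg libraries, above treated TFR (918 to 1051 CPM) and within treated TFH libraries (953 to 1169 CPM). Control TFH (1202 to 1395 CPM) and control TFR libraries (1460 to 1591 CPM) lay above all treated libraries of the same subset. The 6 T cell markers (Cd3d, Cd3e, Cd3g, Cd4, Lck and Thy1) summed higher in treated than in control libraries of every subset, without overlap. Tconv sums were 3346 to 3558 CPM in treated and 1318 to 1634 CPM in control libraries. Treg sums were 2298 to 2578 and 1777 to 1790 CPM. TFH sums were 2588 to 2869 and 1623 to 1873 CPM, and TFR sums 2265 to 2728 and 1429 to 1659 CPM. What these marker differences contribute to the member values was not tested. Mitochondrially encoded genes took 1.85 to 3.17% of counts in treated libraries and 9.50 to 16.9% in control libraries. In 6 libraries, proximal tubule markers of the kidney exceeded 10 CPM in sum and stood 10 times or more above the lowest of their group. The sums were 534 (treated TFH 3), 212 (treated TFR 1), 59.6 (treated Treg 3), 467 and 473 CPM (control Tconv 1 and 2) and 18.2 CPM (control TFH 3), with at most 4.84 CPM elsewhere. Each result below was also computed without 5 of them (over 50 CPM) and without all 6, both chosen after the data were seen. Both leave control Tconv 3 as the only control Tconv library, and take 1 library each from treated Treg, TFH and TFR. Leaving out all 6 also takes 1 library from control TFH. For a call lost in these fits, fewer libraries and kidney RNA cannot be told apart. Fewer cells of a type and less RNA per cell cannot be told apart in such bulk samples.

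The promoters of the ectoenzyme pair are shown because Entpd1 and Nt5e moved in opposite directions in follicular cells, and that of P2rx7 because it rose in 3 of the 4 subsets. Each sequence is the 250 bases before a RefSeq start on the plus strand of GRCm38.p6, read 5′ to 3′. Capitals mark matches, on either strand, to TGACG (the core of the cAMP response element), TGANTCA (AP-1), TGGGAA (the core bound by RBPJ, the factor through which Notch acts) or GGGCGG (GC box).
Entpd1, upstream start, chr19:40612116-40612365: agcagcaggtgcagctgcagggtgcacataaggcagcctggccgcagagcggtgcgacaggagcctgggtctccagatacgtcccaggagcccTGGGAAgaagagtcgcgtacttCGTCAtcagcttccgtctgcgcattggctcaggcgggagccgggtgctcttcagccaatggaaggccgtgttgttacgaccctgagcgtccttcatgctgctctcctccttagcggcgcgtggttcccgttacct
Entpd1, downstream start, chr19:40659520-40659769: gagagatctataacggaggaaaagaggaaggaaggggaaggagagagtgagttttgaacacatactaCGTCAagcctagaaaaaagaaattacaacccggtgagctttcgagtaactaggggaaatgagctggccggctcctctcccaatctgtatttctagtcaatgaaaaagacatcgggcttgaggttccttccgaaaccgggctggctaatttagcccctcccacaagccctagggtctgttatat
Nt5e, chr9:88327359-88327608: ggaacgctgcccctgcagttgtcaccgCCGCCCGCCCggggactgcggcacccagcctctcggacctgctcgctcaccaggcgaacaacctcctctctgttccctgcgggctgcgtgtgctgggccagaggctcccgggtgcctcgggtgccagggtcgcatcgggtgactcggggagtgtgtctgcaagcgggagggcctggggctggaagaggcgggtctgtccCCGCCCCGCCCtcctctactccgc
P2rx7, upstream start, chr5:122643677-122643926: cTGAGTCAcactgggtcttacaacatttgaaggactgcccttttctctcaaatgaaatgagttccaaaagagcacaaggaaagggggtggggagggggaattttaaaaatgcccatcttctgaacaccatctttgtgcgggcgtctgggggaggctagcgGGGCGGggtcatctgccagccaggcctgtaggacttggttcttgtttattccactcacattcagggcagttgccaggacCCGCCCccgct
P2rx7, downstream start, chr5:122650133-122650382: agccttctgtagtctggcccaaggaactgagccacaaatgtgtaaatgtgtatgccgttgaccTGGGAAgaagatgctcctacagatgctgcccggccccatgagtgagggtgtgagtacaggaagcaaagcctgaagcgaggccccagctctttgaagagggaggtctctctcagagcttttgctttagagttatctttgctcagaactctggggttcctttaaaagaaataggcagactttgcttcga
The upstream Entpd1 window held 1 match to TGACG and 1 to TGGGAA, and its downstream window held 1 match to TGACG. The Nt5e window held 4 matches to GGGCGG, some of them overlapping, and no match to the other motifs. The upstream P2rx7 window held 1 match to TGANTCA and 2 to GGGCGG, and its downstream window held 1 match to TGGGAA. Among 32851 RefSeq windows of the same length, 17.8% held TGACG, 6.75% TGANTCA, 21.6% TGGGAA and 32.7% GGGCGG, so these are common matches. Slc29a1, also called higher in 3 of the 4 subsets, has 8 windows that are not shown, and some of them held TGGGAA or GGGCGG. The P2rx4 window, also not shown, held 2 matches to TGACG. The full palindrome TGACGTCA, present in 1.55% of windows, was in none of the 15 windows listed for 6 members.

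The order of the members by level differed between the 8 groups. Levels of different genes are compared per kilobase of exon, with the exons of all annotated transcripts of a gene joined. On this scale Adora2a had the highest mean of the 7 in 7 of the 8 groups. In treated Tconv cells Ada was highest at 11.1 ± 1.49 CPM per kb, and Adora2a was at 7.79 ± 0.470. In treated TFR cells the order was Adora2a at 31.2 ± 4.45 CPM per kb, Slc29a1 at 17.5 ± 1.29, Entpd1 at 15.3 ± 0.471, Nt5e at 10.2 ± 0.730, P2rx7 at 9.22 ± 0.807, Ada at 6.72 ± 0.603 and P2rx4 at 2.11 ± 0.216 (SD, n = 3). Slc29a1 and Entpd1, and likewise Nt5e and P2rx7, lay within about 2 SD of each other there. In control TFR cells the order was Adora2a at 45.2 ± 1.17 CPM per kb, Nt5e at 30.6 ± 2.70, P2rx7 at 10.8 ± 2.12, Slc29a1 at 6.21 ± 0.965, Ada at 2.65 ± 3.03, P2rx4 at 2.16 ± 0.834 and Entpd1 at 1.21 ± 1.49, with Ada, P2rx4 and Entpd1 not separated by their spread. Per kb, Entpd1 was thus among the 3 highest members in treated TFR cells and had the lowest mean of the 7 in control TFR cells.

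**Figure D1:**
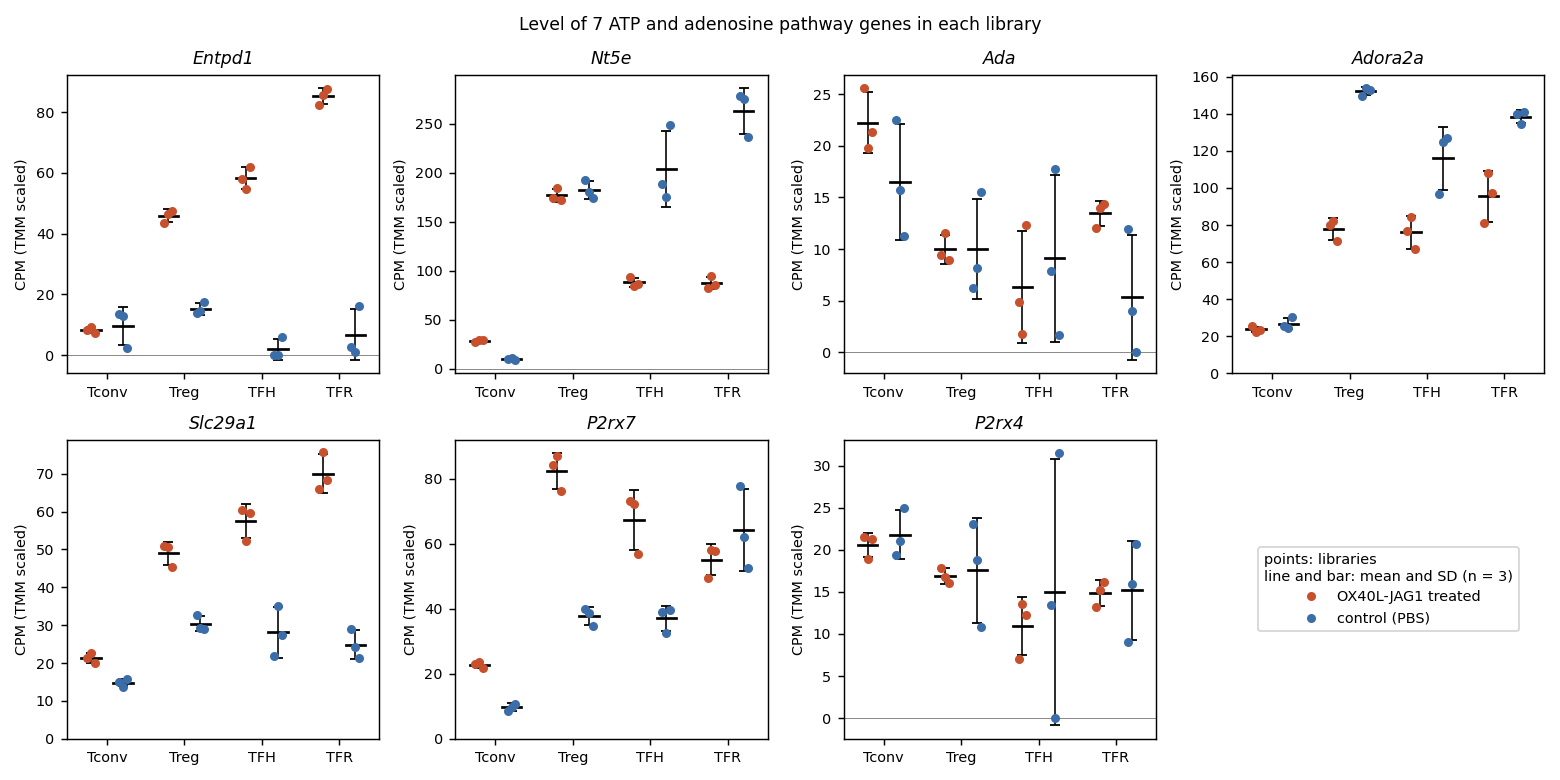
Level of each gene in CPM (vertical axis, linear, TMM scaled) in the 24 libraries, by subset and treatment. Points are libraries, and lines with bars are means with SD of 3 libraries. Entpd1 stands at 54.7 CPM or more in treated TFH and TFR libraries and at 16.3 CPM or less in control ones, while Nt5e lies lower in treated than in control follicular libraries.

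Nt5e, Entpd1, Adora2a, P2rx7 and Slc29a1 differed between treated and control mice past the threshold in at least 1 subset. The patterns differed from gene to gene. The test throughout is edgeR's quasi-likelihood test with Benjamini-Hochberg adjustment over the 18789 genes, called at an adjusted p under 0.05. In Tconv cells 2 of the 7 members were higher in treated mice and none lower, where 6.89% of all tested genes were called higher and 3.05% lower. In Treg cells 2 were higher and 1 lower, beside 5.17% and 3.56% of all genes. In TFH cells 3 were higher and 2 lower, beside 16.5% and 5.86%, and in TFR cells 2 were higher and 2 lower, beside 15.6% and 6.39%. Averaged over the 4 subsets, Entpd1, P2rx7 and Slc29a1 were higher and Nt5e and Adora2a lower in treated mice, 3 and 2 of 7 members beside 24.2% and 8.61% of all genes. The median log2 fold change of the 7 was 0.43 in Tconv, -0.0009 in Treg, -0.47 in TFH and -0.03 in TFR cells, beside 0.02, 0.09, 0.42 and 0.40 for all tested genes. Ada and P2rx4 passed in none of the 19 comparisons, 4 of treatment within a subset, 8 between subsets, 4 of the difference between treatment effects and 3 averaged ones.

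**Figure D2:**
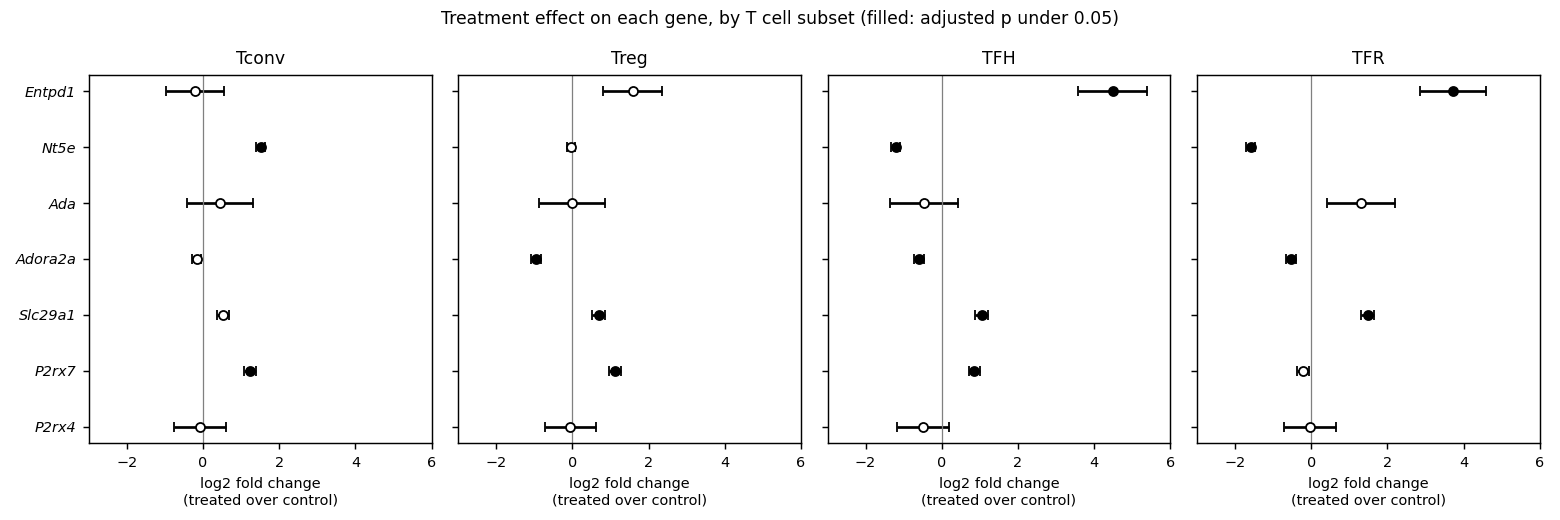
Log2 fold change of treated over control (horizontal axis) with its standard error, for 7 genes in each subset. Filled points passed an adjusted p under 0.05. Entpd1 lies right of 0 and Nt5e and Adora2a left of it in TFH and TFR cells, Nt5e lies right of 0 in Tconv cells, and the bars of Entpd1, Ada and P2rx4 are the widest.

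Entpd1 (ENSMUSG00000048120.16, mm10 chromosome 19, 40612366 to 40741602), the ectoenzyme that starts ATP breakdown, was the member with the highest treatment fold change in follicular cells. In treated TFR libraries it was at 82.4, 85.7 and 87.6 CPM, against 2.81, 1.20 and 16.3 CPM in control TFR libraries. All treated libraries lay above all control ones, and control TFR 3, the shallowest of its group, stood apart from the other control libraries (log2 fold change 3.72 ± 0.86, adjusted p = 0.0036). Without control TFR 3 the log2 fold change was 5.41 ± 0.97 (adjusted p = 0.0005). In treated TFH libraries it was at 57.9, 54.7 and 62.0 CPM, while control TFH libraries had 0, 0 and 88 reads, or 0, 0 and 5.99 CPM. The groups did not overlap, and the only control library with reads was control TFH 3 (fold change 4.49 ± 0.91 on the log2 scale, adjusted p = 0.0013). Control TFH 3 was the deepest of its group, with 15234765 counts against 5740329 and 2537901, and had 18.2 CPM of proximal tubule markers. Fitted only to the TFH libraries of both treatments, the change in TFH cells did not pass (adjusted p = 0.059). It passed in the other alternatives that gave a p, with adjusted p-values of 3e-05 to 0.0049, and DESeq2 gave none for Entpd1. The fitted log2 change was 13.77 without control TFH 3, where the controls hold no read, and such a value is no measure of size.

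In Treg cells Entpd1 was at 43.5, 46.6 and 47.5 CPM in treated libraries, against 13.7, 14.5 and 17.6 CPM in control libraries. The groups were apart, but the change of 1.58 ± 0.78 did not pass with the spread shared over all 24 libraries (adjusted p = 0.28). It passed in a fit to the 6 Treg libraries alone (1.55 ± 0.12, adjusted p = 2.6e-06) and with limma voom with quality weights (1.56 ± 0.20, adjusted p = 1.5e-06). In Tconv cells Entpd1 was at 8.34, 9.16 and 7.38 CPM in treated libraries, against 13.6, 12.9 and 2.44 CPM in control libraries. The control values straddled the treated ones, and the high ones were control Tconv 1 and 2, the libraries with 467 and 473 CPM of proximal tubule markers, against 0.824 CPM in control Tconv 3. The change of -0.22 ± 0.77 did not pass (adjusted p = 0.93). It turned to 1.77 without the kidney libraries, where control Tconv 3 was the only control library. With limma voom it passed as lower (-0.62 ± 0.21, adjusted p = 0.017). Endothelial markers, of cells that are known to carry Entpd1, summed to 645 CPM in control Tconv 1, 626 CPM in control Tconv 2 and 208 CPM in control Tconv 3. Their part in the Tconv values was not tested.

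B cells and myeloid cells also express Entpd1, so their markers were read beside it. The 7 B cell markers summed to 48.4 to 54.0 CPM in treated TFR libraries, against 4.55 to 27.0 CPM in control ones. Among them, Cd79a was at 1.62 ± 0.190 CPM in treated and 0.420 ± 0.727 CPM in control TFR libraries, and Ms4a1 at 0.611 ± 0.179 and 0.145 ± 0.252 CPM (SD, n = 3 each). In TFH cells the sum was 61.3 to 66.6 CPM in treated libraries and 59.7 to 92.7 CPM in control libraries. These B cell sums overlapped between treated and control TFH libraries and were apart in TFR libraries. In Treg cells the sum was 40.5 to 45.9 CPM in treated and 8.35 to 9.64 CPM in control libraries, with Cd22 alone at 36.6 ± 3.02 and 3.77 ± 1.70 CPM. The 8 myeloid markers summed to 18.9 to 19.6 CPM in treated and 12.5 to 30.3 CPM in control TFR libraries, and to 21.3 to 27.4 CPM in treated and 4.87 to 17.5 CPM in control TFH libraries. The myeloid sums overlapped in TFR cells and were apart in TFH cells, higher in treated libraries. The part of these cells in the Entpd1 values was not tested.

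Nt5e (ENSMUSG00000032420.8, chromosome 9, 88327197 to 88372092), the enzyme that makes adenosine from AMP, was higher after treatment in Tconv cells and lower in both follicular subsets. In treated Tconv libraries it was at 27.4, 28.8 and 29.2 CPM, against 9.70, 11.03 and 9.19 CPM in control Tconv libraries. Every treated library was well above every control one (1.51 ± 0.12, adjusted p = 4.5e-09). The T cell marker sums of Tconv libraries were also apart, higher in treated ones. Treated TFH libraries had 93.0, 84.3 and 86.8 CPM, and control TFH libraries 188, 175 and 248 CPM. Treated TFR libraries had 82.5, 94.5 and 85.3 CPM, and control TFR libraries 278, 275 and 236 CPM. In both follicular subsets the highest treated library was below the lowest control library, and the changes were -1.22 ± 0.11 in TFH (adjusted p = 8.2e-08) and -1.59 ± 0.11 in TFR cells (adjusted p = 1.5e-09). Treg cells had 174, 184 and 172 CPM in treated and 192, 181 and 174 CPM in control libraries, values that overlapped (-0.04 ± 0.11, adjusted p = 0.91). The calls in Tconv, TFH and TFR cells held in all 33 alternatives, with adjusted p-values of at most 0.007. The median over all tested genes was positive in TFH and TFR cells, at 0.42 and 0.40, and Nt5e lay further below that median than below 0.

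Set against each other within a library and per kilobase of exon, the ectoenzymes changed order with treatment in TFR cells and came level in treated TFH cells. The ratio of Entpd1 to Nt5e, both in CPM per kb, was 1.54, 1.40 and 1.58 in treated TFR libraries, against 0.0156, 0.00672 and 0.106 in control TFR libraries. In TFH cells it was 0.959 to 1.10 in treated libraries, and 0, 0 and 0.0372 in control libraries. Per kb, Entpd1 RNA thus stood above Nt5e RNA in every treated TFR library and near it in treated TFH libraries, and far below it in every control follicular library. The order in treated libraries rests on the exon lengths used, 5580 bases for Entpd1 and 8602 for Nt5e over all annotated transcripts. In CPM, treated TFR libraries had Entpd1 at 82.4, 85.7 and 87.6 and Nt5e at 82.5, 94.5 and 85.3. Treated TFH libraries had Entpd1 at 54.7 to 62.0 CPM, below Nt5e at 84.3 to 93.0 CPM. In Treg cells the ratio was 0.386 to 0.426 in treated and 0.110 to 0.156 in control libraries, without overlap. Tconv cells gave 0.389 to 0.490 in treated libraries and 2.16, 1.81 and 0.409 in control libraries, the high control values being those of the kidney libraries. These ratios are a description of RNA, and enzyme activity was not measured.

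**Figure D3:**
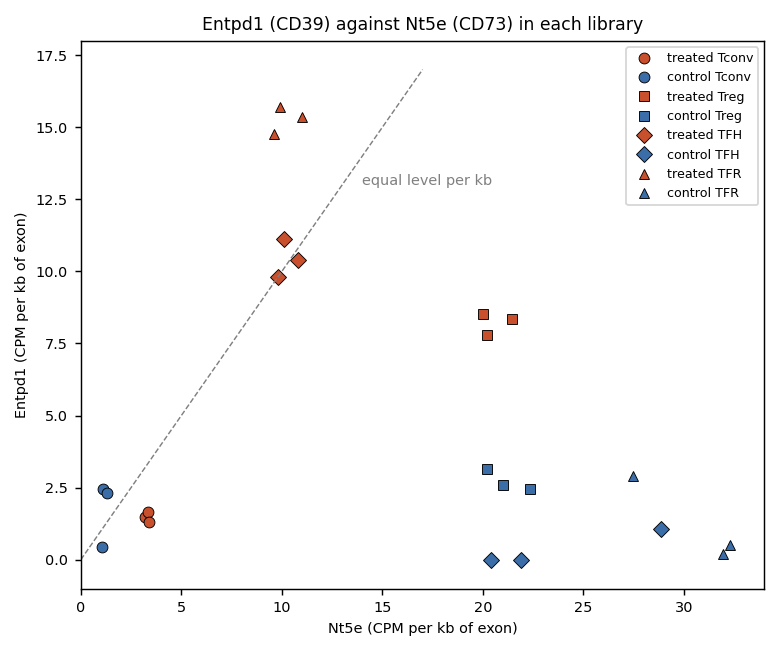
Entpd1 against Nt5e in each of the 24 libraries, both in CPM per kb of exon on linear axes, with shape for subset and colour for treatment. The dashed line marks equal levels. Treated TFR libraries lie above the line, treated TFH libraries near it, and control TFH and TFR libraries at the lower right, with ratios of at most 0.106.

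Adora2a (ENSMUSG00000020178.6, chromosome 10, 75316877 to 75334784), the main adenosine receptor of T cells, was lower after treatment in every subset but Tconv. In treated Treg libraries it was at 80.1, 82.4 and 71.2 CPM, against 149.8, 154 and 153 CPM in control Treg libraries, a difference many times the spread within either group (-0.97 ± 0.13, adjusted p = 1.6e-05). Treated TFH libraries had 76.6, 84.5 and 66.9 CPM, and control TFH libraries 96.5, 125 and 127 CPM. Treated TFR libraries had 81.1, 108 and 97.2 CPM, and control TFR libraries 139.6, 134 and 141 CPM. Neither follicular pair overlapped, and both changes passed, at -0.61 ± 0.13 in TFH (adjusted p = 0.0017) and -0.54 ± 0.13 in TFR cells (adjusted p = 0.0042). They were less firm than the Treg change. With limma voom neither passed (adjusted p = 0.13 and 0.055), the TFH change also missed in the fit to TFH libraries alone (adjusted p = 0.062) and without 6 kidney libraries (adjusted p = 0.051), and the TFR change missed without 5 of them (adjusted p = 0.070). Tconv cells had 25.4, 22.5 and 23.6 CPM in treated and 25.5, 24.8 and 30.3 CPM in control libraries, which overlapped (-0.17 ± 0.13, adjusted p = 0.48). The fit to Tconv libraries alone called the gene lower there (-0.33 ± 0.09, adjusted p = 0.031).

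Slc29a1 (ENSMUSG00000023942.15, chromosome 17, 45585200 to 45599606), the equilibrative transporter ENT1 that carries adenosine across the membrane, was higher in treated mice in all 4 subsets, and 3 of these changes passed. In treated TFR libraries it was at 66.0, 75.8 and 68.3 CPM, against 29.1, 24.2 and 21.4 CPM in control TFR libraries (1.49 ± 0.17, adjusted p = 1.7e-06). In treated TFH libraries it was at 60.4, 52.2 and 59.7 CPM, against 21.7, 35.2 and 27.4 CPM in control TFH libraries (1.04 ± 0.17, adjusted p = 0.00015). Groups were apart in both follicular subsets. Treg libraries had 50.9, 50.7 and 45.4 CPM in treated and 32.7, 29.3 and 29.1 CPM in control mice, also apart (0.69 ± 0.17, adjusted p = 0.0093). This Treg call was lost with no filter on low counts (adjusted p = 0.086) and without 5 or 6 kidney libraries (adjusted p = 0.10 and 0.063). It was also lost without treated Treg 1, treated Treg 2, control Treg 2 or control Treg 3 (adjusted p = 0.054 to 0.057). In Tconv cells the levels were 21.3, 22.6 and 20.05 CPM in treated and 15.1, 13.7 and 15.7 CPM in control libraries. They did not overlap, and the change of 0.52 ± 0.17 was at the threshold without passing (adjusted p = 0.050). DESeq2, limma voom, the fit to Tconv libraries alone and leaving out any 1 of the 6 control follicular libraries called it higher (adjusted p = 0.00046 to 0.048). An antisense gene, Gm17080, lies over 6.86% of the exon length of Slc29a1, and reads of the pair cannot be told apart without strand.

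Ada (ENSMUSG00000017697.3, chromosome 2, 163726584 to 163750239), which turns adenosine into inosine, passed in no comparison of the model, and its libraries spread widely within several groups, with SDs of 1.21 to 8.11 CPM. It averaged 22.3 ± 2.99 CPM in treated and 16.5 ± 5.65 CPM in control Tconv cells, 9.98 ± 1.40 and 9.99 ± 4.87 CPM in Treg cells, 6.36 ± 5.44 and 9.10 ± 8.11 CPM in TFH cells, and 13.5 ± 1.21 and 5.31 ± 6.06 CPM in TFR cells (SD, n = 3 each). In control TFR libraries it was at 11.9, 4.03 and 0 CPM, the last with no read where 3 reads would be 0.568 CPM. Treated TFR libraries, at 12.1 to 14.3 CPM, lay above all control TFR libraries, while the groups overlapped in the other 3 subsets. The changes with treatment were 0.43 ± 0.87 in Tconv, -0.0009 ± 0.87 in Treg, -0.47 ± 0.89 in TFH and 1.32 ± 0.89 in TFR cells, with adjusted p-values of 0.29 to 1. With limma voom Ada passed in 5 of the 19 comparisons, and in fits limited to the compared libraries in 3 of 16.

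P2rx7 (ENSMUSG00000029468.17, chromosome 5, 122643911 to 122691432), the ATP-gated channel, was higher after treatment in Tconv, Treg and TFH cells. In treated Treg libraries it was at 84.2, 86.9 and 76.3 CPM, against 40.0, 38.7 and 34.8 CPM in control Treg libraries (1.12 ± 0.15, adjusted p = 3e-05). In treated Tconv libraries it was at 22.9, 23.7 and 21.9 CPM, against 8.63, 9.92 and 10.8 CPM in control Tconv libraries (1.22 ± 0.16, adjusted p = 9.3e-06). All treated libraries lay above all control libraries in both subsets, as they did for the T cell marker sums. In TFH cells the treated libraries had 73.1, 72.1 and 56.8 CPM and the control libraries 39.1, 32.5 and 39.5 CPM, apart as well (0.86 ± 0.16, adjusted p = 0.00048), and limma voom did not call it (adjusted p = 0.087). In TFR cells treated libraries had 49.5, 58.0 and 57.7 CPM, within or below the control values of 77.8, 62.2 and 52.7 CPM, and the change of -0.22 ± 0.15 did not pass (adjusted p = 0.30). P2rx4 (ENSMUSG00000029470.15, chromosome 5, 122707544 to 122729738), a related ATP-gated channel whose gene begins 16111 bases after the end of P2rx7, did not share this pattern. Its group means lay between 10.98 ± 3.44 CPM in treated TFH and 21.8 ± 2.89 CPM in control Tconv cells, and control TFH libraries lay between 0 and 31.5 CPM. Its changes with treatment were -0.09 ± 0.68 in Tconv, -0.06 ± 0.68 in Treg, -0.49 ± 0.68 in TFH and -0.03 ± 0.68 in TFR cells, with adjusted p-values of 0.63 to 0.99. Limma voom called P2rx4 in 1 of the 19 comparisons, and fits limited to the compared libraries in 2 of 16.

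Between subsets, most members were higher in regulatory than in conventional cells. In treated mice 5 of 7 members were higher in Treg than in Tconv cells and none lower, where 6.37% of all genes were called higher and 5.54% lower. In control mice 4 were higher and none lower, beside 5.9% and 3.4% of all genes. Nt5e was the member with the largest difference, at 177 ± 6.68 CPM in treated Treg and 28.5 ± 0.972 CPM in treated Tconv cells (2.63 ± 0.12, adjusted p = 6.6e-13), and at 182 ± 9.37 CPM in control Treg and 9.97 ± 0.948 CPM in control Tconv cells (4.19 ± 0.13, adjusted p = 5.9e-16). Adora2a differed by 1.71 ± 0.13 and 2.50 ± 0.13, P2rx7 by 1.85 ± 0.16 and 1.95 ± 0.16, and Slc29a1 by 1.20 ± 0.17 and 1.03 ± 0.17 in treated and in control mice, with adjusted p-values of at most 0.00017. The Slc29a1 difference in control mice did not pass without 5 or 6 kidney libraries, where control Tconv 3 was the only control Tconv library. Entpd1 was higher in treated Treg than in treated Tconv cells (2.47 ± 0.80, adjusted p = 0.048), a call lost in 16 of the 24 fits that left out 1 library (adjusted p = 0.054 to 0.18), with the replicate block (adjusted p = 0.061) and without 5 kidney libraries (adjusted p = 0.089). These 16 fits each left out 1 of the treated Tconv, treated Treg, control Treg or treated TFR libraries, control Tconv 1 or 2, or treated TFH 1 or 2. In control mice it was at 15.3 ± 2.05 CPM in Treg and 9.65 ± 6.25 CPM in Tconv cells and did not pass (0.67 ± 0.77, adjusted p = 0.70). Ada and P2rx4 were lower in every treated Treg than in every treated Tconv library without passing (-1.16 ± 0.88 and -0.28 ± 0.68, adjusted p = 0.52 and 0.90). Their control Treg and Tconv libraries overlapped.

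Follicular helper cells were likewise above conventional cells. In treated mice 5 members were higher in TFH than in Tconv cells and none lower (10.3% and 7.77% of all genes), with Nt5e at 1.63 ± 0.11, Adora2a at 1.67 ± 0.13, P2rx7 at 1.56 ± 0.16, Slc29a1 at 1.43 ± 0.17 and Entpd1 at 2.81 ± 0.81 on the log2 scale. The Entpd1 difference (adjusted p = 0.019) was lost on leaving out treated Tconv 1, 2 or 3 (adjusted p = 0.072 to 0.086), and the other 4 had adjusted p-values of at most 1.6e-06. Ada and P2rx4 were lower in every treated TFH than in every treated Tconv library without passing (-1.81 ± 0.89 and -0.90 ± 0.68, adjusted p = 0.16 and 0.39). In control mice 4 were higher and none lower (9.89% and 15.1% of all genes), with Nt5e at 4.36 ± 0.13, Adora2a at 2.11 ± 0.13, P2rx7 at 1.92 ± 0.16 and Slc29a1 at 0.91 ± 0.17, each with an adjusted p of at most 0.00048. The Slc29a1 difference did not pass with limma voom (adjusted p = 0.11) or in the fit to the compared libraries (adjusted p = 0.20). Nor did it pass without 5 or 6 kidney libraries, where control Tconv 3 was the only control Tconv library. Averaged over treatments and paired subsets, follicular cells were higher for 4 of 7 members and lower for none (10% and 16.2% of all genes), and regulatory cells higher for 5 of 7 and lower for none (11.2% and 10.4%). Of these, Entpd1 was higher in regulatory subsets by 1.25 ± 0.40 (adjusted p = 0.027), which was lost without control TFR 3 (0.83, adjusted p = 0.10) or treated Tconv 3 (1.24, adjusted p = 0.050).

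Between the follicular and the other regulatory cells the order depended on treatment. In treated mice Nt5e was lower in TFR than in Treg cells, at 87.4 ± 6.28 and 177 ± 6.68 CPM (-1.02 ± 0.11, adjusted p = 5.3e-06). In control mice it was higher in TFR than in Treg cells, at 263 ± 23.2 and 182 ± 9.37 CPM (0.53 ± 0.11, adjusted p = 0.0037). P2rx7 went the same way, averaging 55.1 ± 4.82 CPM in TFR and 82.5 ± 5.53 CPM in Treg cells of treated mice (-0.58 ± 0.15, adjusted p = 0.028), and 64.2 ± 12.7 CPM in control TFR and 37.8 ± 2.70 CPM in control Treg cells (0.77 ± 0.15, adjusted p = 0.0030). These were the members called, 2 lower in treated mice, where 1.78% of all genes were higher and 2.83% lower, and 2 higher in control mice, where 2.28% were higher and 7.46% lower. The P2rx7 difference in treated mice was lost on leaving out any 1 of the 6 libraries compared (adjusted p = 0.066 to 0.17), with no filter on low counts (adjusted p = 0.13) and without 5 or 6 kidney libraries (adjusted p = 0.39 and 0.25). In control mice the P2rx7 difference was lost in the fit to the compared libraries (adjusted p = 0.073). In treated mice Entpd1 was at 85.2 ± 2.63 CPM in TFR and 45.9 ± 2.09 CPM in Treg cells and Slc29a1 at 70.0 ± 5.16 and 49.0 ± 3.09 CPM. Neither pair overlapped and neither passed (adjusted p = 0.88 and 0.089), while fits limited to these libraries called both (0.85 ± 0.05, adjusted p = 2.9e-05, and 0.47 ± 0.06, adjusted p = 0.00062).

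TFR and TFH cells of treated mice showed no call by edgeR among the 7 members, where 4.61% of all genes were higher and 4.96% lower. Before adjustment 1 member, Adora2a, was past 0.05, DESeq2 called 1 member and limma voom with quality weights 5. The shares of all genes above are those of edgeR and are no background for the counts of other methods. In control mice P2rx7 was higher in TFR than in TFH cells, at 64.2 ± 12.7 and 37.0 ± 3.96 CPM (0.79 ± 0.16, adjusted p = 0.0023), and Nt5e at 263 ± 23.2 and 204 ± 38.8 CPM (0.36 ± 0.11, adjusted p = 0.032), 2 of 7 members higher and none lower, beside 7.82% and 8% of all genes. The Nt5e groups overlapped, and that call was lost in 4 fits without 1 library, which were control TFR 1 or 2 and control TFH 1 or 2 (adjusted p = 0.078 to 0.10). It was also lost with the replicate block (adjusted p = 0.051), with no filter on low counts (adjusted p = 0.070) and without 5 kidney libraries (adjusted p = 0.078). Neither difference passed with limma voom (adjusted p = 0.43 and 0.63) or in the fit to the compared libraries (adjusted p = 0.56 and 0.60).

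The treatment effects themselves were compared between subsets with an interaction contrast in the same model. For Treg minus Tconv cells 2 of 7 members were lower and none higher, where 0.883% of all genes were higher and 1.8% lower. For TFH minus Tconv cells 1 was higher and 1 lower (14.4% and 5.22% of all genes), for TFR minus Treg cells 1 was higher and 2 lower (5.24% and 2.26%), and for TFR minus TFH cells 1 was lower and none higher (3.3% and 3.75%). Nt5e differed in the first 3 of these, with differences of -1.56 ± 0.16, -2.73 ± 0.16 and -1.54 ± 0.16 (adjusted p = 3.2e-06, 7.9e-10 and 5.1e-06). P2rx7 differed for TFR minus Treg (-1.35 ± 0.22, adjusted p = 0.00069) and TFR minus TFH cells (-1.08 ± 0.22, adjusted p = 0.0053), as it rose in Treg and TFH cells and did not in TFR cells. The TFH minus Tconv difference of Entpd1 was 4.70 ± 1.17 (adjusted p = 0.011). Without 5 kidney libraries, which leaves control Tconv 3 as the only control Tconv library, it was 2.66 ± 1.35 and did not pass. Slc29a1 for TFR minus Treg (0.80 ± 0.24, adjusted p = 0.042) and Adora2a for Treg minus Tconv cells (-0.80 ± 0.18, adjusted p = 0.018) were near the threshold. The Slc29a1 difference was lost in 20 of the 24 fits without 1 library (adjusted p = 0.054 to 0.14), that is on leaving out any library other than control TFR 1 or control TFH 1, 2 or 3. It was also lost with the replicate block (adjusted p = 0.060), relative log expression scaling (adjusted p = 0.057), no filter on low counts (adjusted p = 0.25), limma voom (adjusted p = 0.14) and without 5 or 6 kidney libraries (adjusted p = 0.31 and 0.22), and passed in 7 of 33 alternatives. The Adora2a difference was lost without treated Tconv 1, treated Treg 3, control Tconv 1, control Tconv 2 or control Treg 2 (adjusted p = 0.054 to 0.076), and with scaling without mitochondrial, haemoglobin and receptor genes (adjusted p = 0.054). It was also lost without 5 or 6 kidney libraries, where control Tconv 3 was the only control Tconv library. The P2rx7 difference for TFR minus TFH cells missed with limma voom (adjusted p = 0.22), in the fit to the compared libraries (adjusted p = 0.12) and without 5 kidney libraries (adjusted p = 0.055), and that of Entpd1 missed in the fit to the compared libraries (adjusted p = 0.052). Comparisons in this paragraph share libraries with the treatment comparisons above and are no separate evidence.

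A wider list of 64 purinergic and cAMP genes was counted around the members, of which 63 were in the table and 55 were tested. In treated mice 3 of the 55 were higher and 6 lower in Tconv cells, 8 higher and 9 lower in Treg cells, 13 higher and 6 lower in TFH cells and 11 higher and 7 lower in TFR cells. Of all tested genes, 6.89% were higher and 3.05% lower in Tconv cells, 5.17% and 3.56% in Treg cells, 16.5% and 5.86% in TFH cells, and 15.6% and 6.39% in TFR cells. The higher count in Tconv cells was thus no larger than that background. The median log2 fold changes of the list were -0.11, 0.01, 0.66 and 0.41, beside 0.02, 0.09, 0.42 and 0.40 for all genes. Within adenosine metabolism, adenosine kinase (Adk), which removes adenosine inside the cell by making AMP, was lower in all 4 subsets, at 116 ± 2.09 and 417 ± 55.9 CPM in treated and control Tconv, 102 ± 3.43 and 318 ± 7.61 CPM in Treg, 70.6 ± 6.94 and 252 ± 48.7 CPM in TFH and 90.3 ± 6.15 and 229.8 ± 20.9 CPM in TFR cells. No treated library reached the lowest control library of its subset. The changes were -1.84 ± 0.12, -1.64 ± 0.12, -1.84 ± 0.12 and -1.35 ± 0.12, with adjusted p-values of at most 3.7e-08. Adk was thus lower in the same mice in which Slc29a1, the transporter that brings adenosine to it, was higher.

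Genes that set or read the cAMP signal of adenosine receptors moved in both directions. Pde3b, a phosphodiesterase that degrades cAMP, was at 15.2 ± 1.91 CPM in treated and 126 ± 10.5 CPM in control Treg cells (-3.06 ± 0.17, adjusted p = 2.8e-11), and was also lower in Tconv (-0.97 ± 0.16), TFH (-1.35 ± 0.16) and TFR cells (-1.23 ± 0.16). Pde4d, another cAMP phosphodiesterase, was lower as well, with log2 fold changes of -1.70 ± 0.13 in Treg, -0.80 ± 0.13 in Tconv, -0.82 ± 0.13 in TFH and -1.02 ± 0.13 in TFR cells. Crem, a cAMP-responsive transcription factor that cAMP itself induces, was at 48.2 ± 5.89 CPM in treated and 236 ± 62.7 CPM in control TFH cells (-2.29 ± 0.14, adjusted p = 2.5e-10) and was lower in the other 3 subsets, with log2 fold changes of -1.24 to -1.46. Adcy7, an adenylyl cyclase, rose in all 4 subsets, by 1.45 ± 0.13 in Tconv, 1.19 ± 0.13 in Treg, 1.10 ± 0.13 in TFH and 0.71 ± 0.13 in TFR cells. Pde3b also separated subsets within a treatment, with treated Treg below treated Tconv cells (-3.51 ± 0.17, adjusted p = 2.7e-12). The changes of Pde3b, Pde4d, Crem and Adcy7 in the 4 subsets had adjusted p-values of at most 0.00039.

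Of the other ectoenzymes, Cd38, which breaks down NAD and feeds another route to adenosine, was higher after treatment in all 4 subsets. In Tconv cells it was at 4.59, 6.46 and 5.12 CPM in treated and 0.676, 1.57 and 0.792 CPM in control libraries, without overlap (2.41 ± 0.39, adjusted p = 0.00014). In Treg cells it was at 30.2, 29.3 and 33.0 CPM in treated and 8.32, 7.08 and 9.59 CPM in control libraries, also apart (1.89 ± 0.37, adjusted p = 0.0015). The changes were smaller in TFH (1.02 ± 0.36, adjusted p = 0.048) and TFR cells (1.13 ± 0.36, adjusted p = 0.030). Alpl, another ectoenzyme of the list, was called higher in TFR cells and passed there in 33 alternatives, with fitted log2 changes of 8.67 to 13.1. Fitted changes of this height are no measure of size. P2ry10, listed under P2Y receptors by its name, was lower in all 4 subsets, with log2 fold changes of -0.73 to -0.87 and adjusted p-values of at most 0.0025. Whether it responds to nucleotides was not tested. P2ry10 in each subset, Cd38 outside Tconv cells, Pde3b in Tconv and Adcy7 in TFR cells fell outside the naming rule and were chosen after their values were seen. Dpp4, the surface protein that binds Ada in humans, was at 130.5 ± 39.3 CPM in treated and 25.4 ± 15.4 CPM in control TFH cells (2.29 ± 0.38, adjusted p = 0.00016), and the kidney library treated TFH 3 is among the treated ones. Limma voom did not call Dpp4 there (2.06, adjusted p = 0.12).

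**Figure D4:**
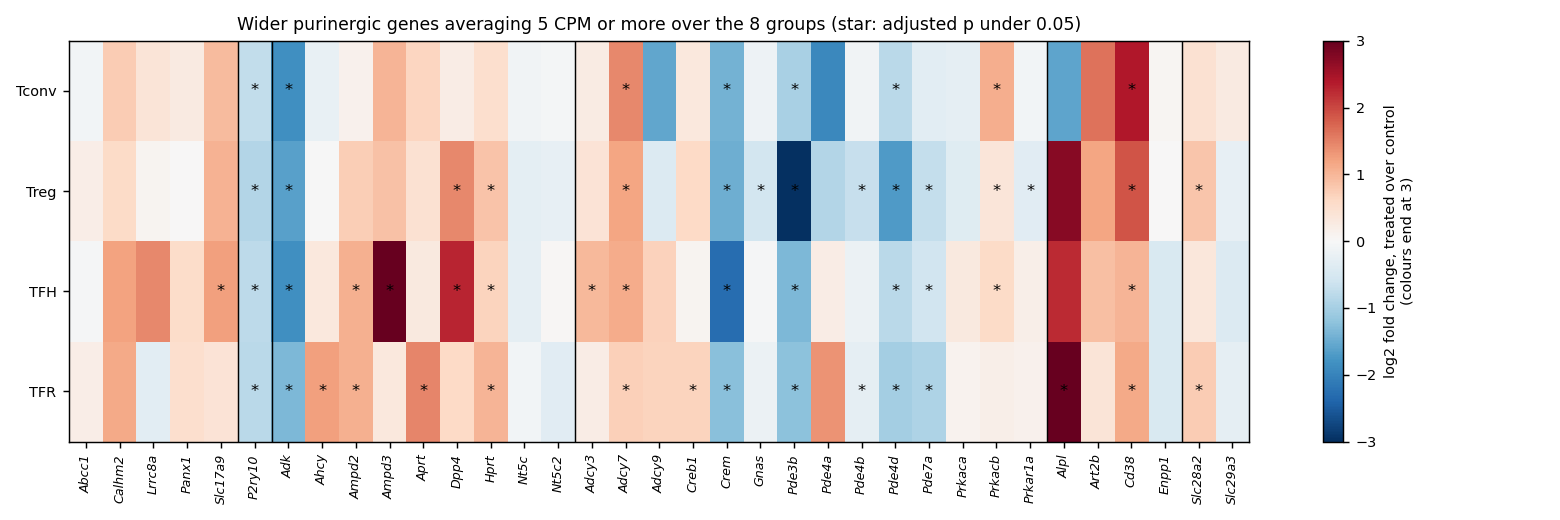
Log2 fold change of treated over control (colour, ending at 3 in either direction) for the 35 genes of the wider list that averaged 5 CPM or more, by subset (rows), with lines between gene groups. Stars mark an adjusted p under 0.05. Adk, Crem, Pde3b, Pde4d and P2ry10 are starred and blue in all 4 rows, and Adcy7 and Cd38 starred and red.

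Across the 24 libraries some of the members' levels went together. On the log2(CPM + 1) scale Nt5e went with Adora2a (Pearson r = 0.91) and P2rx7 (0.82), and P2rx7 with Slc29a1 (0.78), while Entpd1 went with Slc29a1 (0.69) and not with Nt5e (-0.02). Entpd1 and P2rx7 were at 0.38. Ada was at -0.51 with Nt5e and -0.53 with Adora2a, and P2rx4 lay between -0.29 and 0.27 with every other member. Among 9478 annotated coding genes with a mean of at least 5 CPM, the closest to Nt5e were Pou2f2 and Mdfic (r = 0.97 each) and Ptger2 (0.96), a prostaglandin receptor that also raises cAMP. The closest to Entpd1 were Dpysl2 (0.94), Fmn1 (0.93) and Hist1h2bc (0.93), and to Adora2a they were Rora (0.97), Slc4a8 (0.96) and Zc3h12d (0.96). P2rx7 was closest to Ssh1, Vmp1 and Rabgap1l (0.95 each), and Slc29a1 to Cd82 (0.96), Gapdh (0.95) and Rab27a (0.95). Ada was closest to Tfb1m (0.83), and P2rx4 to Mkks (0.96). These correlations describe libraries that share subset, treatment and depth differences, and carry no test.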

How the data were processed

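Sorted T cells gave RNA that was purified on silica columns with DNase, depleted of ribosomal RNA with RiboCop and made into CORALL total RNA libraries, per the labels' protocols. The authors deposited 1 table of raw counts per gene. The submitters' processing notes name STAR, featureCounts and mm10. For versions, annotation release, strand setting and duplicates, the sources used here state nothing. Gene IDs were matched to GENCODE M21 without version number (38872 of 39056, of which 4573 carried another version, and 184 were unmatched). No other per-sample column was present.

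Groups came from the sample titles. In edgeR 4.0.16 (R 4.3.3), filterByExpr kept 18789 genes, libraries were TMM scaled, and 1 model of 8 groups was fitted to 24 libraries (common biological coefficient of variation 0.617). The 19 comparisons were contrasts of it, tested by edgeR's quasi-likelihood test with Benjamini-Hochberg adjustment over all tested genes, at 0.05. Standard errors are the log2 fold change over the square root of F. The procedure was tested on simulated data. Alternatives were relative log expression scaling, no filter, scaling without mitochondrial, haemoglobin and receptor genes, DESeq2 1.42.0, limma 3.58.1 (voom with quality weights), only the compared libraries, the replicate number as a block, each library left out, and 5 or 6 kidney libraries left out. The last pair was chosen after seeing the data. All replicate pairs differed beyond counting noise.

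The members and lists were chosen with earlier results of these data known. The naming rule took all 7 members in every comparison, from the wider list up to 6 genes per comparison with the smallest adjusted p, and 3 annotated coding genes per member by likeness (Pearson r of log2(CPM + 1), mean of at least 5 CPM). Not every gene that met the rule is described. Abcc1, Gnas, Nt5c, Pde4b, Pde7a and Prkacb are among those left out. P2rx7 shares 1.99% of its exon length with Mir8115.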

Additional observations from a re-analysis of the deposited data

Results flagged for a closer look

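Treatment effects differed between subsets in 8 cases, by the interaction contrast of edgeR's quasi-likelihood test with Benjamini-Hochberg adjustment. For Nt5e the log2 differences were -1.56 for Treg minus Tconv (adjusted p = 3.2e-06), -2.73 for TFH minus Tconv (adjusted p = 7.9e-10) and -1.54 for TFR minus Treg cells (adjusted p = 5.1e-06). For P2rx7 they were -1.35 for TFR minus Treg (adjusted p = 0.00069) and -1.08 for TFR minus TFH cells (adjusted p = 0.0053). Entpd1 differed by 4.70 for TFH minus Tconv cells (adjusted p = 0.011), Slc29a1 by 0.80 for TFR minus Treg cells (adjusted p = 0.042) and Adora2a by -0.80 for Treg minus Tconv cells (adjusted p = 0.018).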

How the results depend on the processing

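The calls of Nt5e in Tconv, TFH and TFR cells, of Entpd1 in TFR cells, of Adora2a in Treg cells, of P2rx7 in Tconv and Treg cells and of Slc29a1 in TFH and TFR cells kept their direction and passed in every alternative that gave an adjusted p. DESeq2 gave none for Entpd1. The number of members called by treatment was 4 in Tconv cells and 3 in TFH cells with limma voom and with only the compared libraries. For TFR against TFH in treated mice it was 1 with scaling without mitochondrial, haemoglobin and receptor genes, with DESeq2 and with only the compared libraries, and 5 with limma voom. For TFR against Treg in treated mice it was 1 with no filter and without 5 or 6 kidney libraries, 4 with DESeq2, and 5 with limma voom and with only the compared libraries. For TFR against TFH in control mice it was 1 with no filter, with the replicate block and without 5 kidney libraries, and 0 with limma voom and with only the compared libraries. For TFR against Treg in control mice only the compared libraries gave 1. For the difference Treg minus Tconv it was 1 with the altered scaling and without 5 or 6 kidney libraries, for TFH minus Tconv 1 with only the compared libraries and without 5 kidney libraries, and for TFR minus TFH 2 with DESeq2 and 0 with limma voom, only the compared libraries and without 5 kidney libraries. Leaving out 1 library gave 1 to 3 members for TFR against Treg in treated mice, 1 to 3 for TFR against TFH in control mice, 1 to 2 for the difference Treg minus Tconv and 1 to 3 for TFR minus TFH. These counts stand without the share of all genes called in each alternative, and are not read as results about the members. The cause of these changes was not tested.

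Values that changed sign belonged to comparisons that did not pass. For Entpd1 they were 1.771 in Tconv cells and -0.202 for the difference Treg minus Tconv without 5 or 6 kidney libraries, 0.092 for TFH against Tconv in control mice without 5, and for follicular cells averaged -0.02 with the replicate block, -0.784 with limma voom and -1.674 without 6 kidney libraries. For Ada in Treg cells they were 0.008 with relative log expression scaling and DESeq2, 0.087 with the altered scaling, 0.119 with limma voom and 0.085 without 5 or 6 kidney libraries, and for Ada in regulatory cells averaged 0.036 without 5. Nt5e in Treg cells was 0.049 with the altered scaling, and for TFR against TFH in treated mice it was 0.003 with no filter, 0.067 with the altered scaling, 0.007 with limma voom and 0.028 and 0.027 without 5 and 6 kidney libraries. P2rx7 for the difference Treg minus Tconv was 0.018 with relative log expression scaling, 0.051 with the altered scaling, 0.02 with DESeq2, 0.044 with only the compared libraries and 0.107 and 0.106 without 5 and 6 kidney libraries. P2rx4 was 0.038, 0.076 and 0.008 with the altered scaling in Treg cells, TFR cells and regulatory cells averaged, and 0.002, 0.036, 0.242, 0.182, 0.115 and 0.198 with limma voom in Tconv, Treg, TFH and TFR cells, averaged over subsets and in regulatory cells. It was 0.002 in TFR cells with the replicate block, 0.064 there without 5 or 6 kidney libraries, and without 6 it was 0.517 in TFH cells, 0.074 averaged and 0.229 in regulatory cells.

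With 1 library left out, sign changes gave ranges for Ada of -1.386 to 0.452 in TFH and -0.24 to 0.471 in Treg cells, and for Adora2a of -0.019 to 0.198 for TFR minus TFH. For Entpd1 the ranges were -10.039 to 0.923 for TFR minus TFH, -2.181 to 0.272 in follicular cells averaged, -0.366 to 10.595 for TFR against TFH in control mice and -0.672 to 0.118 in Tconv cells. For Nt5e they were -0.065 to 0.038 for TFR against TFH in treated mice and -0.071 to 0.003 in Treg cells, and for Slc29a1 -0.316 to 0.018 for TFR against TFH in control mice. For P2rx4 they were -0.182 to 0.236 in regulatory cells averaged, -0.296 to 0.121 averaged over subsets, -0.162 to 0.027 in Tconv, -1.035 to 0.637 in TFH, -0.289 to 0.263 in TFR and -0.302 to 0.197 in Treg cells.

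Whether replicate numbers pair the samples could not be told. Deviations of same-numbered libraries from their group means correlated at -0.783, 0.700 and -0.801 for treated TFR and TFH cells. For treated TFR and Treg cells they correlated at -0.785, 0.69 and -0.806, and in the other comparisons at -0.057 to 0.069. Kidney markers in treated TFH 3, treated TFR 1 and treated Treg 3 enter these deviations, so the correlations cannot show whether same-numbered libraries share mice. With the replicate block the treatment effect called 1794 genes in Tconv, 1480 in Treg, 3775 in TFH and 3797 in TFR cells, against 1868, 1640, 4200 and 4134 without it. Depth limits control TFH and TFR libraries most, where 3 reads are 0.204 to 1.16 CPM.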
